A study of Mus musculus with 6 samples.

Results

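The collagen family comprised 44 of the 36629 gene rows in the files, taken as every gene whose symbol is Col, a number, the letter a and a number. The libraries were bulk RNA-seq of mouse spinal cord (segments T8 to T12) that was taken from C57/BL6 mice aged 3 to 5 weeks on day 3 after the operation, with 3 libraries per group. In the sham group the cord was only exposed, by laminectomy (opening the vertebral arch) after muscle and fat had been cleared from thoracic vertebrae 9 and 10. In the injured group (SCI, spinal cord injury) the cord exposed in this way was also crushed with a vascular clip of 60 g force for 5 seconds. Every animal thus had the laminectomy, and the comparison is between cord with and without the crush. The labels do not say whether a library came from 1 animal or a pool, so the p-values measure the spread between these libraries.

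Collagens are secreted or membrane-bound proteins whose chains wind around each other in a helix, and most of them build extracellular matrix. Fibrillar collagens form the fibres of connective tissue, type IV collagen forms the mesh of basement membranes, and FACIT collagens sit on the surface of fibrils. In the healthy cord they are found mainly in the meninges, nerve roots and vessel walls, and after injury fibrous scar rich in fibrillar collagen is known to form in the lesion.

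Values are the authors' FPKM (fragments scaled to gene length and library total), a level per length that can be compared between genes. A change is the SCI mean less the sham mean of log2(FPKM + 1), a scale that shrinks the changes of weakly expressed genes, and was tested with limma across all 17435 genes that reached 1 FPKM in at least 3 of the 6 libraries. An adjusted p (Benjamini-Hochberg) under 0.05 was the threshold. Of the 44 collagens, 33 passed the filter on low values, and each of these reached 1 FPKM in at least 2 libraries of both groups. The other 11 ranged from 0 to 1.31 FPKM.

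The summed collagen level was higher in every injured library than in any sham library, and members moved in both directions. Their summed level was 297, 216 and 299 FPKM in sham replicates 1, 2 and 3 and 637, 853 and 670 FPKM in SCI replicates 1, 2 and 3. The exact two-sided permutation p was 0.10, the smallest that 3 against 3 allows. Values of a group are given in this order of replicates throughout. Of the 33 tested, 18 were higher, 8 were lower and 7 did not pass, and over all genes tested 57.5% were called, 26.7% higher and 30.8% lower. The median change was 0.91 on the log2 scale for the tested collagens and −0.08 for all genes. Injured and sham libraries did not overlap for 27 collagens, 19 with SCI above and 8 with SCI below, beside 30.7% and 36.9% of all genes. Because whole cord segments were sequenced, fewer cells of a type and less RNA per cell cannot be told apart.

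**Figure D1:**
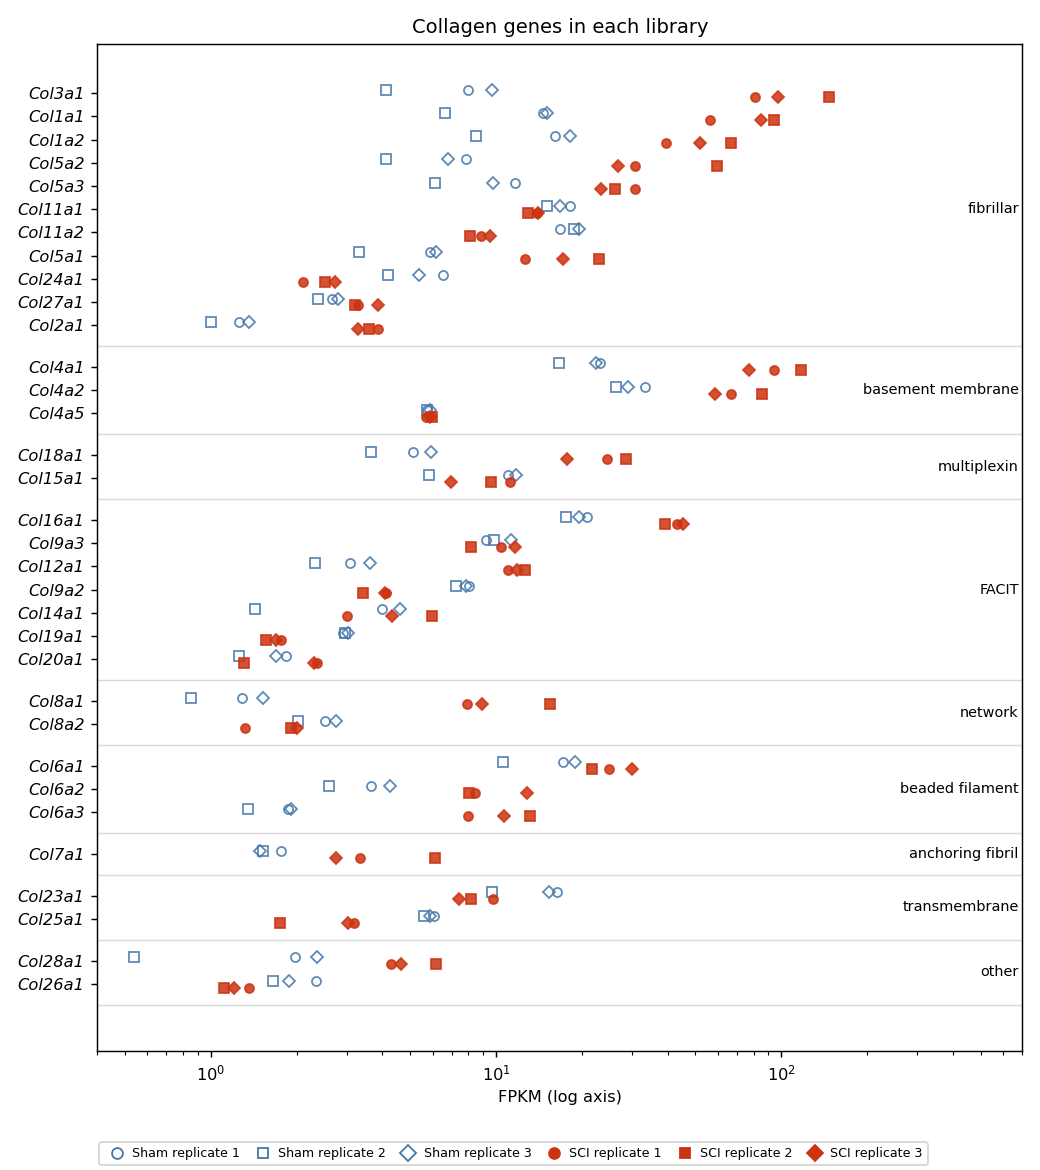
Level of each of the 33 tested collagen genes in the 6 libraries, in FPKM on a log axis, grouped by class; open symbols are sham and filled symbols SCI libraries. Col3a1 lay between 4.13 and 9.71 FPKM in sham and between 80.8 and 147 in SCI libraries, while Col4a5 stayed between 5.67 and 5.96 in all 6.

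Some libraries stood apart from the others of their group. Sham replicate 2 was the lowest sham library for 28 of the 33 tested collagens, against 44.7% of all genes. SCI replicate 2 was the highest injured library for 15 of the 33, against 25.5% of all genes, and haemoglobin genes took 6.16% of its FPKM, against 0.66% and 0.21% in SCI replicates 1 and 3. SCI replicate 3 held skeletal muscle genes at a sum of 555 FPKM, against 58.8 and 16.1 in the other injured libraries. It was also the highest library for every listed sensory ganglion gene except Prph: Scn10a was at 6.60 FPKM and listed at 0 in the other 5 libraries, and Avil was at 17.3 against at most 0.5. The number of collagens higher was 18 without sham replicate 2, 18 without SCI replicate 2 and 17 without SCI replicate 3, and the number lower was 7, 5 and 5.

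The fibrillar class had 7 of its 11 members higher, 3 lower and 1 that did not pass. Col3a1, the type III chain of extensible tissues and early repair, was at 7.98, 4.13 and 9.71 FPKM in sham cord against 80.8, 147 and 97.5 in injured cord. The groups were far apart, and the mean rose 14.9-fold, from 7.27 ± 2.86 to 108 ± 34.2 FPKM (SD, n = 3 per group). Its log2 change of 3.75 (SE 0.31, limma adjusted p = 1.1e-04) was the 68th highest of the 17435 genes tested. Col1a1, which encodes the main chain of type I collagen in skin, bone and scar, was at 14.6, 6.60 and 15.1 FPKM in sham cord against 56.2, 93.9 and 84.6 in injured cord. Every injured library was above every sham library, with a rise of 6.48-fold in the mean and a log2 change of 2.64 (SE 0.32, limma adjusted p = 5.2e-04). Col1a2, the partner chain in type I collagen, was at 16.1, 8.5 and 18.1 in sham cord against 39.3, 66.7 and 51.8 in injured cord (log2 change 1.85, SE 0.29, adjusted p = 0.0016). In all of these, sham replicate 2 was the lowest library and SCI replicate 2 the highest. Without sham replicate 2 the log2 changes were 3.43 for Col3a1, 2.29 for Col1a1 and 1.54 for Col1a2, and without SCI replicate 2 they were 3.51, 2.50 and 1.66.

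On GRCm38, Col3a1 (ENSMUSG00000026043) spans 45311538 to 45349706 of chromosome 1 (plus strand). Col1a1 (ENSMUSG00000001506) spans 94936224 to 94953042 of chromosome 11 (plus strand), and Col1a2 (ENSMUSG00000029661) spans 4504814 to 4541544 of chromosome 6 (plus strand). The promoters of Col3a1 and Col1a2, the fibrillar genes with the largest and the fourth largest rise, are shown because these genes rose together. Col1a1 and Col5a2, which ranked between them, had no entry in the promoter table used. Each sequence runs 5′ to 3′ on the strand of the gene, from 250 bases before to 50 bases after the RefSeq start site (GRCm38.p6), and capitals mark matches on either strand to 5 short motifs. These were the TATA box TATAAA, the CCAAT box, the GC box core GGGCGG, the AP-1 form TGANTCA and the SMAD pentamer CAGAC. The windows are chr1:45311288-45311587 (plus strand) for Col3a1 and chr6:4505368-4505667 (plus strand) for Col1a2. The RefSeq start site of Col3a1 is the start of its span above. That of Col1a2 (4505618) differs from the start of its span (4504814), so its whole window lies inside that span.
Col3a1: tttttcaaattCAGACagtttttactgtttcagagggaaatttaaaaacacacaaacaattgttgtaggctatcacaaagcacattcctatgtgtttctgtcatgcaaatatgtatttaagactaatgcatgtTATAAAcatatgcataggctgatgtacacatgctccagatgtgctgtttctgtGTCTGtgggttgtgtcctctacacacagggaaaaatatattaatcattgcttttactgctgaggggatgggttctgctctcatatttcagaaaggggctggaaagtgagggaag
Col1a2: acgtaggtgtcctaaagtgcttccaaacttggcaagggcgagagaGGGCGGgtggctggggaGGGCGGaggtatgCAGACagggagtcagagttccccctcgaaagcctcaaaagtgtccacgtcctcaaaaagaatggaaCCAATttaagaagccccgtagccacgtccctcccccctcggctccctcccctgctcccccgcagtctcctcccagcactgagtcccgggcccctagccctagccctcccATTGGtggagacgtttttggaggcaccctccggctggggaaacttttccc
The pair had little in common within these windows. The Col3a1 window held no CG dinucleotide and was 37.7% G or C, with a TATAAA match that began 117 bases before the start site. The Col1a2 window held 13 CG dinucleotides and was 61.0% G or C, with GGGCGG matches that began 205 and 188 bases and CCAAT matches, the first of which began 109 bases before the start site. The CAGAC pentamer was found in both, as it was in 49.6% of all 32851 promoters.

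The chains of type V collagen, which sits inside type I fibrils and sets their diameter, rose as well. Col5a2 was at 7.86, 4.11 and 6.81 FPKM in sham cord against 30.6, 59.5 and 26.8 in injured cord, a log2 change of 2.41 (SE 0.32, limma adjusted p = 8.2e-04). Col5a1 was at 5.87, 3.30 and 6.17 in sham cord against 12.7, 22.9 and 17.2 in injured cord (1.60, SE 0.26, adjusted p = 0.0018). Col5a3 was at 11.6, 6.12 and 9.74 in sham cord against 30.6, 26.2 and 23.4 in injured cord (1.48, SE 0.21, adjusted p = 0.0011). For each of these chains the groups were apart, and SCI replicate 2 was highest for the first and second of them but not for Col5a3. Col3a1 and Col5a2 are neighbours on chromosome 1 that point towards each other across a gap of 24614 bases.

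The other fibrillar genes, some of them best known from cartilage, did not move as a block. Col2a1, the main collagen of cartilage, was at 1.26, 1.00 and 1.36 FPKM in sham cord against 3.86, 3.59 and 3.28 in injured cord (log2 change 1.05, limma adjusted p = 5.8e-04). Col11a2, whose chain is assembled with type II collagen in cartilage, was at 16.7, 18.8 and 19.5 in sham cord against 8.88, 8.11 and 9.54 in injured cord (−0.97, SE 0.10, adjusted p = 2.5e-04). Every injured library was below every sham library. Col24a1 was at 6.51, 4.18 and 5.37 in sham cord against 2.10, 2.51 and 2.72 in injured cord (−0.87, adjusted p = 0.0032). Col11a1 was at 18.2, 15.2 and 16.8 in sham cord against 13.9, 12.9 and 14.0 in injured cord, a small difference (−0.28, adjusted p = 0.035). That call ended without any 1 library other than sham replicate 2, with adjusted p from 0.059 to 0.13, and under median-ratio scaling (−0.20, adjusted p = 0.058). Col27a1, at 2.38 to 2.79 in sham cord against 3.20 to 3.86 in injured cord, did not pass (0.30, adjusted p = 0.064), although it did under median-ratio scaling (0.36, adjusted p = 0.027) and without the mean-variance trend (adjusted p = 0.037).

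The promoter of Col11a2 (chr17:34038888-34039187, plus strand) is shown as that of the fibrillar gene with the lowest adjusted p among those that fell, with the same capitals. On log2(FPKM + 1) its change was the lowest of the tested collagens, but with a pseudocount of 0.1 Col25a1 (−1.15) and Col24a1 (−1.09) were below it (−1.04).
Col11a2: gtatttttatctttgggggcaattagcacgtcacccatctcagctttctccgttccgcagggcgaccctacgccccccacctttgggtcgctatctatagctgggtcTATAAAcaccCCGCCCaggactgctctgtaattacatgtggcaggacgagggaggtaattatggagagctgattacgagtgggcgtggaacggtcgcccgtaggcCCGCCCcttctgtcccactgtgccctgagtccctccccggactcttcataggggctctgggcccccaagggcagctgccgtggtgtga
It held a TATAAA match that began 143 bases before the start site, as Col3a1 did at 117 bases, together with 16 CG dinucleotides and GGGCGG matches on the opposite strand that began 133 and 38 bases before it.

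**Figure D2:**
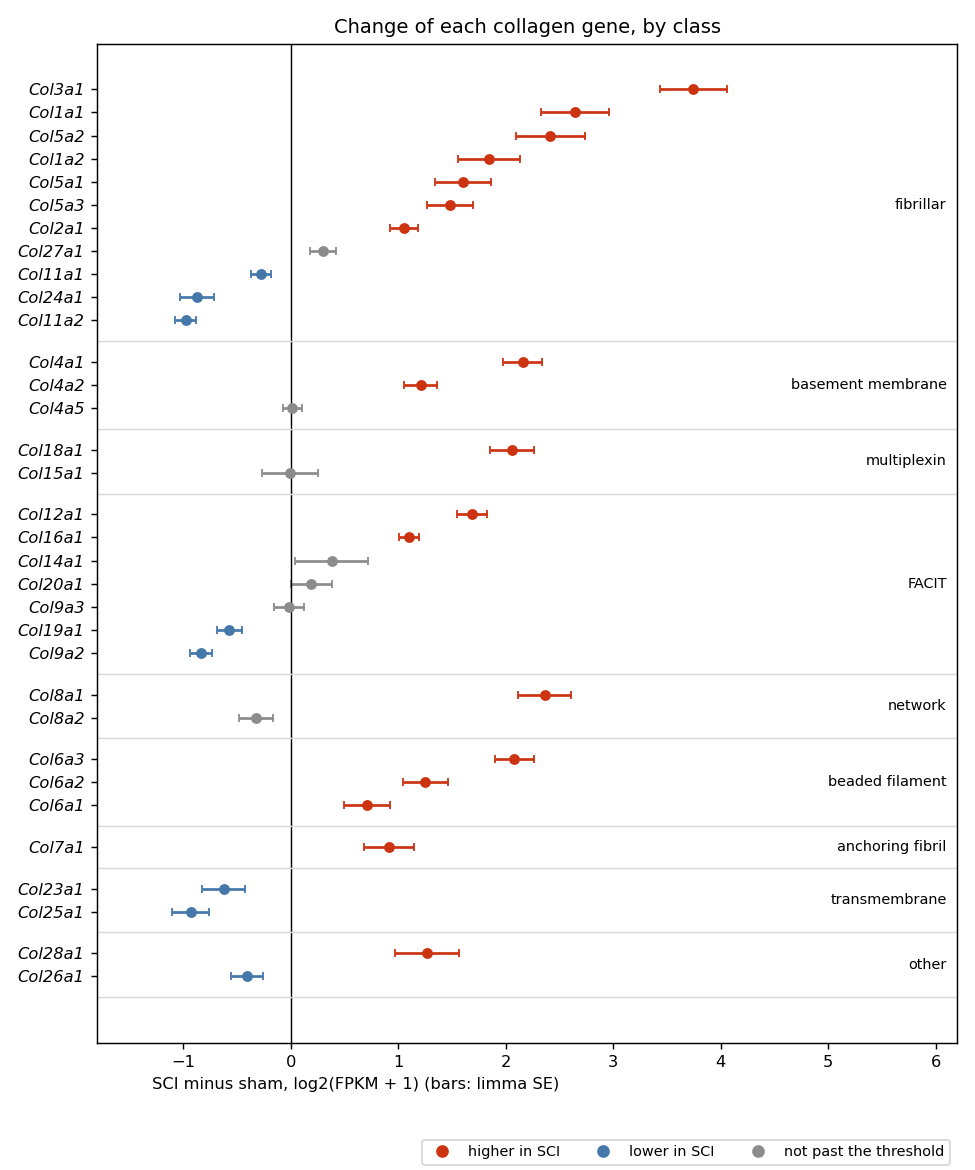
Change of the 33 tested collagens, SCI minus sham on log2(FPKM + 1), with limma's standard error as bars, grouped by class and ordered by size within it. Values run from 3.75 for Col3a1 to −0.97 for Col11a2, and both tested transmembrane collagens lie below 0.

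In the basement membrane class, Col4a1 and Col4a2 rose and Col4a5 did not pass. These chains make type IV collagen, and the first and second of them are known from nearly all basement membranes, those of vessels included. Col4a1 was at 23.2, 16.6 and 22.4 FPKM in sham cord against 94.2, 118 and 77.0 in injured cord. The groups did not overlap, and the mean rose 4.65-fold, from 20.7 ± 3.58 to 96.3 ± 20.4 FPKM (log2 change 2.16, SE 0.18, limma adjusted p = 1.1e-04). Col4a2 was at 33.3, 26.4 and 29.0 in sham cord against 66.4, 85.7 and 58.5 in injured cord, a rise of 2.38-fold (1.21, SE 0.15, adjusted p = 6.3e-04). Col4a5, a chain of more specialised basement membranes, was at 5.71, 5.74 and 5.85 in sham cord against 5.67, 5.96 and 5.88 in injured cord. Its change was 0.01 (SE 0.09, adjusted p = 0.90) and −0.086 under quantile normalization. Col4a3, Col4a4 and Col4a6 were below the filter, at 0.17 to 1.31 FPKM.

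The type IV genes are arranged in head-to-head pairs. In the files Col4a1 (ENSMUSG00000031502) lies on the minus strand of chromosome 8 from 11198423 to 11312826, and Col4a2 (ENSMUSG00000031503) on the plus strand from 11312805 to 11449287, so that their 5′ ends overlap by 22 bases. Col4a1 also overlaps Gm15418 on the opposite strand, and without a stated strand setting reads from overlapping stretches cannot be assigned with certainty. Col4a4 and Col4a3 lie 71 bases apart on chromosome 1, and Col4a6 and Col4a5 1308 bases apart on chromosome X. The promoters of Col4a1 (chr8:11312777-11313076, minus strand) and Col4a2 (chr8:11312555-11312854, plus strand) are shown because both genes rose from this shared start region, each written on its own strand with capitals as above.
Col4a1: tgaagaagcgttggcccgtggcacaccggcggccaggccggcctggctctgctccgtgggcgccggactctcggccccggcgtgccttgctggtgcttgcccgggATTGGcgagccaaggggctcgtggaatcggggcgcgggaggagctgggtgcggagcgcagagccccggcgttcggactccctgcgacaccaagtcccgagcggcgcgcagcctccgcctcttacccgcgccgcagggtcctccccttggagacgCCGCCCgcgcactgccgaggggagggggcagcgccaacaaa
Col4a2: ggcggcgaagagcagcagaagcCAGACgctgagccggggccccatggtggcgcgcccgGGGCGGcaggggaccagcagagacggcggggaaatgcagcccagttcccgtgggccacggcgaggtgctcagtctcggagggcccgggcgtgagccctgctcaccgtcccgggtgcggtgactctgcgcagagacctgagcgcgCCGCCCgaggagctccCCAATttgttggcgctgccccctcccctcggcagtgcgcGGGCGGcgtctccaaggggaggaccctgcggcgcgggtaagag
The windows shared 78 bases, and their start sites were 21 bases apart. They held 37 and 33 CG dinucleotides, against a median of 7 over all promoters, and both had matches to CCAAT and GGGCGG but none to TATAAA. The only GGGCGG match of Col4a1 lies in the shared stretch, on the same bases as a Col4a2 match read from the other strand. Although they start from the same stretch, the transcripts differed in ratio between the groups. The ratio of Col4a1 to Col4a2 was 0.697, 0.629 and 0.772 in sham cord against 1.42, 1.37 and 1.32 in injured cord, so Col4a2 was the more abundant in every sham library and Col4a1 in every injured library (exact permutation p = 0.10).

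The multiplexins Col15a1 and Col18a1, which lie at basement membranes and carry the endostatin family of fragments, differed from each other. Col18a1 was at 5.10, 3.66 and 5.90 FPKM in sham cord against 24.6, 28.6 and 17.7 in injured cord, which were all above the sham libraries (log2 change 2.06, SE 0.20, limma adjusted p = 2.4e-04). Col15a1 was at 11.0, 5.84 and 11.7 in sham cord against 11.2, 9.63 and 6.98 in injured cord, which overlapped. Its change of −0.01 (SE 0.26, adjusted p = 0.99) was 0.068 under median-ratio scaling, and 0.12, 0.16 and 0.17 without sham replicate 1, sham replicate 3 and SCI replicate 3.

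Of 7 tested FACIT collagens 2 were higher (28.6%, against 26.7% of all genes), 2 lower (28.6%, against 30.8%) and 3 did not pass. Col16a1, the most abundant of the class, was at 20.9, 17.6 and 19.5 FPKM in sham cord against 43.1, 39.0 and 45.1 in injured cord (log2 change 1.10, SE 0.09, limma adjusted p = 1.2e-04). Col12a1, which binds type I fibrils, was at 3.09, 2.32 and 3.61 in sham cord against 11.0, 12.6 and 11.8 in injured cord (1.69, SE 0.14, adjusted p = 1.0e-04). The injured libraries lay close together for both, with no library standing out. Col9a2, a chain of cartilage type IX collagen, was at 8.03, 7.22 and 7.82 in sham cord against 4.13, 3.42 and 4.09 in injured cord (−0.83, SE 0.11, adjusted p = 6.5e-04). Col19a1, known from neurons and from basement membrane zones, was at 2.91, 2.96 and 3.03 in sham cord against 1.77, 1.56 and 1.69 in injured cord (−0.57, SE 0.11, adjusted p = 0.0044).

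The remaining FACIT members overlapped between the groups. Col9a3, the partner of Col9a2 in type IX collagen, was at 9.19 to 11.3 FPKM in sham cord against 8.18 to 11.6 in injured cord. Its change was −0.01 (limma adjusted p = 0.94), and it was above 0 under median-ratio scaling (0.06) and without sham replicate 3 (0.06) or SCI replicate 2 (0.12). Col14a1, a FACIT of dense connective tissue, was at 3.97, 1.43 and 4.59 in sham cord against 3.01, 5.99 and 4.31 in injured cord (0.38, adjusted p = 0.37). Its change was 0.0078 without sham replicate 2 and 0.18 without SCI replicate 2. Col20a1, which overlaps another expressed gene on its own strand so that its value is uncertain, did not pass (0.19, adjusted p = 0.42). Col9a1 and Col22a1 stayed below the filter, at 0.26 to 1.25 FPKM.

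Col8a1, a short-chain network collagen of vessel walls, had one of the larger rises of the family. It was at 1.29, 0.85 and 1.53 FPKM in sham cord against 7.91, 15.5 and 8.92 in injured cord, with SCI replicate 2 the highest (log2 change 2.36, SE 0.24, limma adjusted p = 2.8e-04). Without that library the change was 2.09. Col8a2, its partner chain, was at 2.52, 2.02 and 2.74 in sham cord against 1.32, 1.91 and 2.00 in injured cord and did not pass although the groups were apart (−0.32, SE 0.16, adjusted p = 0.12). Col10a1, the collagen of growth plate cartilage, was at 0 to 0.26 FPKM.

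All 3 tested chains of type VI collagen, which forms beaded microfilaments around cells, were higher. Col6a3 was at 1.86, 1.35 and 1.91 FPKM in sham cord against 7.95, 13.1 and 10.7 in injured cord (log2 change 2.08, SE 0.18, limma adjusted p = 1.4e-04). Col6a2 was at 3.65, 2.59 and 4.24 in sham cord against 8.44, 8.04 and 12.9 in injured cord (1.25, SE 0.21, adjusted p = 0.0020). Col6a1, the most abundant, was at 17.2, 10.6 and 18.9 in sham cord against 25.0, 21.6 and 30.0 in injured cord (0.71, SE 0.22, adjusted p = 0.025). The rise of Col6a1 did not pass without SCI replicate 1 (0.72, adjusted p = 0.057) or SCI replicate 3 (0.59, adjusted p = 0.072). Nor did it pass when all genes were kept in the test (adjusted p = 0.063). SCI replicate 3 was the highest library for Col6a1 and Col6a2 and SCI replicate 2 for Col6a3. The paralogs Col6a4, Col6a5 and Col6a6, which lie in a row on chromosome 9, were at 0.14 to 0.91 FPKM, too low to test.

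Col7a1, which forms the anchoring fibrils of skin, was at 1.76, 1.52 and 1.49 FPKM in sham cord against 3.35, 6.09 and 2.75 in injured cord (log2 change 0.91, SE 0.23, limma adjusted p = 0.013). SCI replicate 2 stood above the other injured libraries, and the change was 0.64 without it.

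Transmembrane collagens, which keep a membrane anchor, were the class with no member higher. Col25a1, a collagen of neurons needed by motor axons, was at 6.04, 5.60 and 5.88 FPKM in sham cord against 3.17, 1.75 and 3.04 in injured cord (log2 change −0.93, SE 0.17, limma adjusted p = 0.0034). Every injured library was below every sham library, with SCI replicate 2 the lowest. Col23a1 was at 16.4, 9.67 and 15.4 in sham cord against 9.76, 8.17 and 7.41 in injured cord, so that sham replicate 2 lay just under SCI replicate 1 (−0.62, SE 0.20, adjusted p = 0.029). Leaving out replicate 1 or 3 of sham, or replicate 2 or 3 of SCI, ended this call, with adjusted p from 0.065 to 0.095, as it did when no filter was applied (adjusted p = 0.069). Col13a1 and Col17a1 were at 0 to 0.98 FPKM. Spinal cord neuron genes moved in the same direction as Col25a1: 10 of 10 were lower, beside 30.8% of all genes tested. Without the crush this list summed to between 3440 and 4085 FPKM. With it the sums lay between 1033 and 1729, and SCI replicate 2 was again the lowest. This pattern was not particular to neurons. Of 10 oligodendrocyte genes, 6 were lower and 1 higher. That list summed to 6311, 4825 and 6233 FPKM in injured cord, while its lowest sham sum was 7930. The part of either cell type in the fall of Col25a1 was not tested.

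The last members were Col28a1 and Col26a1. Col28a1, known from peripheral nerve, was at 1.97, 0.54 and 2.36 FPKM in sham cord against 4.28, 6.17 and 4.64 in injured cord (log2 change 1.27, SE 0.30, limma adjusted p = 0.0088). The groups were apart, and the change was 0.92 without sham replicate 2, the lowest library. Col26a1 was at 2.34, 1.66 and 1.88 in sham cord against 1.36, 1.11 and 1.21 in injured cord (−0.41, SE 0.14, adjusted p = 0.045). That call ended without any 1 of the 6 libraries, with adjusted p from 0.052 to 0.15, and under median-ratio scaling (−0.36, adjusted p = 0.057).

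Fibrillar chains made up more of the collagen signal in each injured library than in any sham library, in a design that cannot pass the threshold. Fibrillar genes took 36.8%, 34.4% and 37.3% of the summed collagen FPKM in sham cord against 44.3%, 52.3% and 49.9% in injured cord. FACIT genes took 17.3%, 20.3% and 17.6% in sham cord against 12.1%, 8.55% and 12.3% in injured cord, and transmembrane genes 7.68%, 7.37% and 7.42% against 2.08%, 1.20% and 1.66%. For these classes the groups did not overlap (exact permutation p = 0.10 each). The basement membrane share, 19.6% to 23.1% in sham cord against 21.3% to 26.4% in injured cord, did overlap (exact permutation p = 0.30). By mean level, Col4a2 (29.6 ± 3.46 FPKM), Col4a1 (20.7 ± 3.58) and Col16a1 (19.3 ± 1.65) led in sham libraries, where Col3a1 ranked 14. Col3a1 (108 ± 34.2), Col4a1 (96.3 ± 20.4) and Col1a1 (78.2 ± 19.6) led in SCI libraries. Col3a1 was above Col1a1 in each injured library, while the order of both relative to Col4a1 varied between these libraries.

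**Figure D3:**
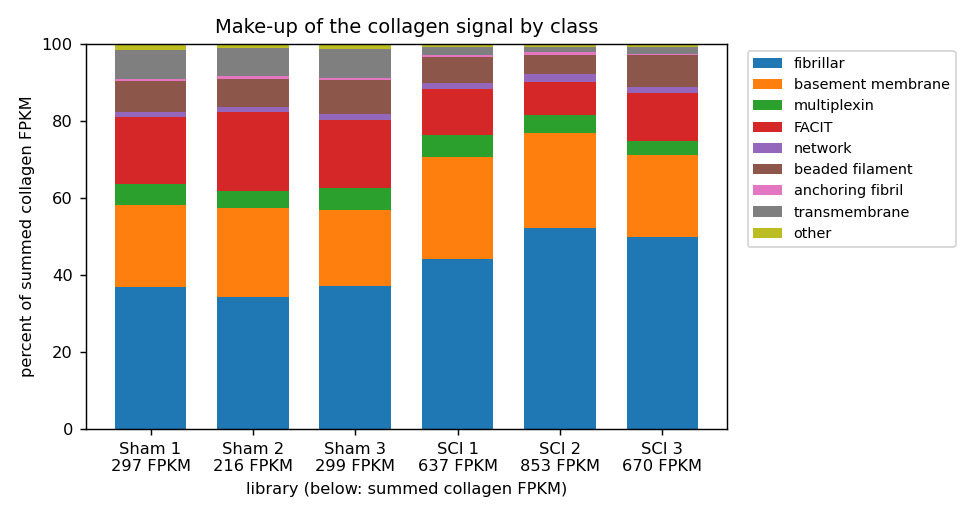
Percent of the summed collagen FPKM taken by each class in the 6 libraries, with the summed FPKM written under each bar. The fibrillar part is 34.4% to 37.3% in sham cord against 44.3% to 52.3% in injured cord, and the transmembrane part is at least 7.37% in sham and at most 2.08% in SCI libraries.

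Ratios between chains, most of which share a molecule, stood apart between the groups. The ratio of Col1a1 to Col1a2 was 0.907, 0.776 and 0.830 in sham cord against 1.43, 1.41 and 1.63 in injured cord. Col3a1 relative to Col1a1 went from 0.548, 0.626 and 0.645 to 1.44, 1.56 and 1.15, so type III transcripts were the fewer in sham and the more abundant in injured libraries. Col4a1 relative to Col4a5 went from 4.06, 2.89 and 3.83 to 16.6, 19.7 and 13.1. Col6a1 relative to Col6a2 was 4.71, 4.08 and 4.45 in sham cord against 2.96, 2.69 and 2.33 in injured cord, the only ratio of the 6 that was lower after injury. Col5a2 relative to Col5a1 was 1.34, 1.25 and 1.10 in sham cord against 2.42, 2.60 and 1.56 in injured cord. In all 6 ratios, that of Col4a1 to Col4a2 included, the groups were apart, with an exact two-sided permutation p of 0.10 each, the smallest the design allows. Adjusted over the 16 totals, shares and ratios compared, this p is 0.13, so none passed.

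**Figure D4:**
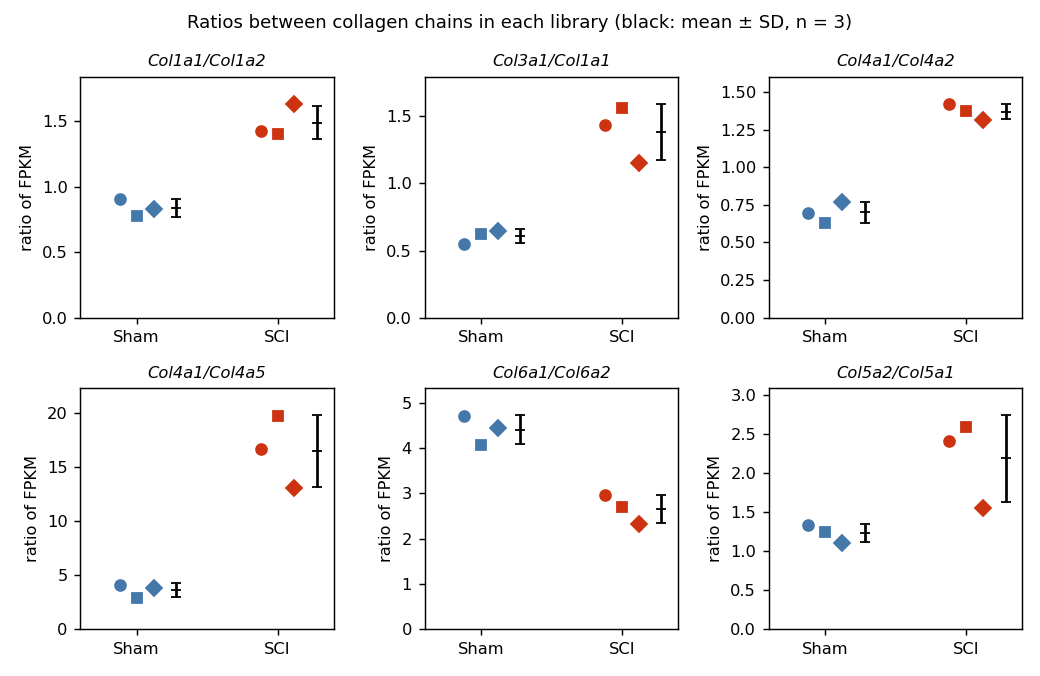
Ratio of the FPKM of paired collagen chains in each library, with the mean ± SD (n = 3) of each group in black. The groups are apart in all 6 panels, and Col4a1/Col4a2 crosses from 0.629 to 0.772 in sham to 1.32 to 1.42 in SCI libraries.

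Genes that prepare collagen chains in the endoplasmic reticulum were mostly higher: 15 of 21 rose in limma and 0 fell, also 0 at an unadjusted p under 0.05. The median log2 change was 0.86, against −0.08 for all genes tested, of which 26.7% were higher and 30.8% lower. Serpinh1, the collagen-specific chaperone HSP47, was at 24.9, 19.5 and 29.2 FPKM in sham cord against 125, 211 and 122 in injured cord (log2 change 2.56, SE 0.23, limma adjusted p = 1.6e-04). Fkbp10, a prolyl isomerase of collagen folding, went from 5.33 ± 1.02 to 30.2 ± 8.84 FPKM (2.27, adjusted p = 1.7e-04). P4hb, a subunit of prolyl 4-hydroxylase and the most abundant of the list, went from 118 ± 4.16 to 353 ± 50.8 (1.57, adjusted p = 5.4e-05). The 6 that did not pass had changes from −0.40 (Colgalt2) to 0.24 (P4ha2). Under quantile normalization and in the fit with the replicate number as a term, 1 member of the list was lower.

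Of 12 genes that trim procollagen or cross-link fibrils, 8 were higher and 2 lower, beside 26.7% and 30.8% of all genes tested. Of the 8, Adamts14 and Loxl4 reached 1 FPKM in injured libraries only, so that the filter itself required them to differ, and 6 of the other 10 tested were higher. The cross-linking lysyl oxidases Loxl2 and Lox rose most. Loxl2 was at 1.93, 2.06 and 2.07 FPKM in sham cord against 22.2, 38.0 and 15.5 in injured cord (log2 change 3.03, SE 0.28, limma adjusted p = 1.7e-04). Lox was at 5.84, 2.53 and 3.86 in sham cord against 29.9, 60.1 and 26.1 in injured cord (2.92, SE 0.35, adjusted p = 5.0e-04). Bmp1, the procollagen C-proteinase, went from 8.55 ± 0.41 to 39.2 ± 6.22 (2.06, adjusted p = 2.7e-05). The proteinases of the N-propeptide, named after their values were seen, split. Adamts14 ranged from 0.13 to 0.23 FPKM without the crush and from 1.86 to 4.97 with it, while Adamts3 (−0.61, adjusted p = 0.014) and Adamts2 (−0.29, adjusted p = 0.043) were lower. The number lower was 0 without sham replicate 2 and 1 without any other library. Tll1 (−0.39) and Pcolce2 (−0.12) did not pass.

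Collagen receptors had 7 of 8 tested members higher, among them Itga2, which reached 1 FPKM in injured libraries only and so had to differ. Of the other 7, 6 were higher, beside 26.7% of all genes tested. Itgb1, the beta chain shared by the collagen-binding integrins, went from 66.1 ± 3.13 to 233 ± 44.4 FPKM (log2 change 1.79, SE 0.13, limma adjusted p = 6.7e-05). Ddr2, a receptor tyrosine kinase for fibrillar collagen, went from 2.29 ± 0.53 to 8.75 ± 2.74 (1.54, adjusted p = 9.9e-04). Ddr1 was at 64.3, 64.2 and 65.3 in sham cord against 96.9, 68.1 and 92.1 in injured cord (0.39, adjusted p = 0.039), which did not pass once any 1 library except SCI replicate 2 was removed. Itga10 did not pass (0.02), and the platelet receptor Gp6 was listed at 0 in 5 of the 6 libraries. Enzymes that degrade collagen had 5 of 6 tested members higher. Mmp8 and Mmp13 reached 1 FPKM in injured libraries only and so had to differ, and 3 of the other 4 were higher. Mmp8, the collagenase of neutrophils, was at 0.36 ± 0.025 FPKM in sham and 9.47 ± 5.80 in SCI libraries. Mmp14, the membrane-bound collagenase, went from 5.89 ± 0.15 to 32.9 ± 6.77 (2.28, adjusted p = 3.1e-05). The lysosomal protease Ctsk rose by 0.80 (adjusted p = 0.0011), and Mmp9 (0.72, adjusted p = 0.14) did not pass.

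**Figure D5:**
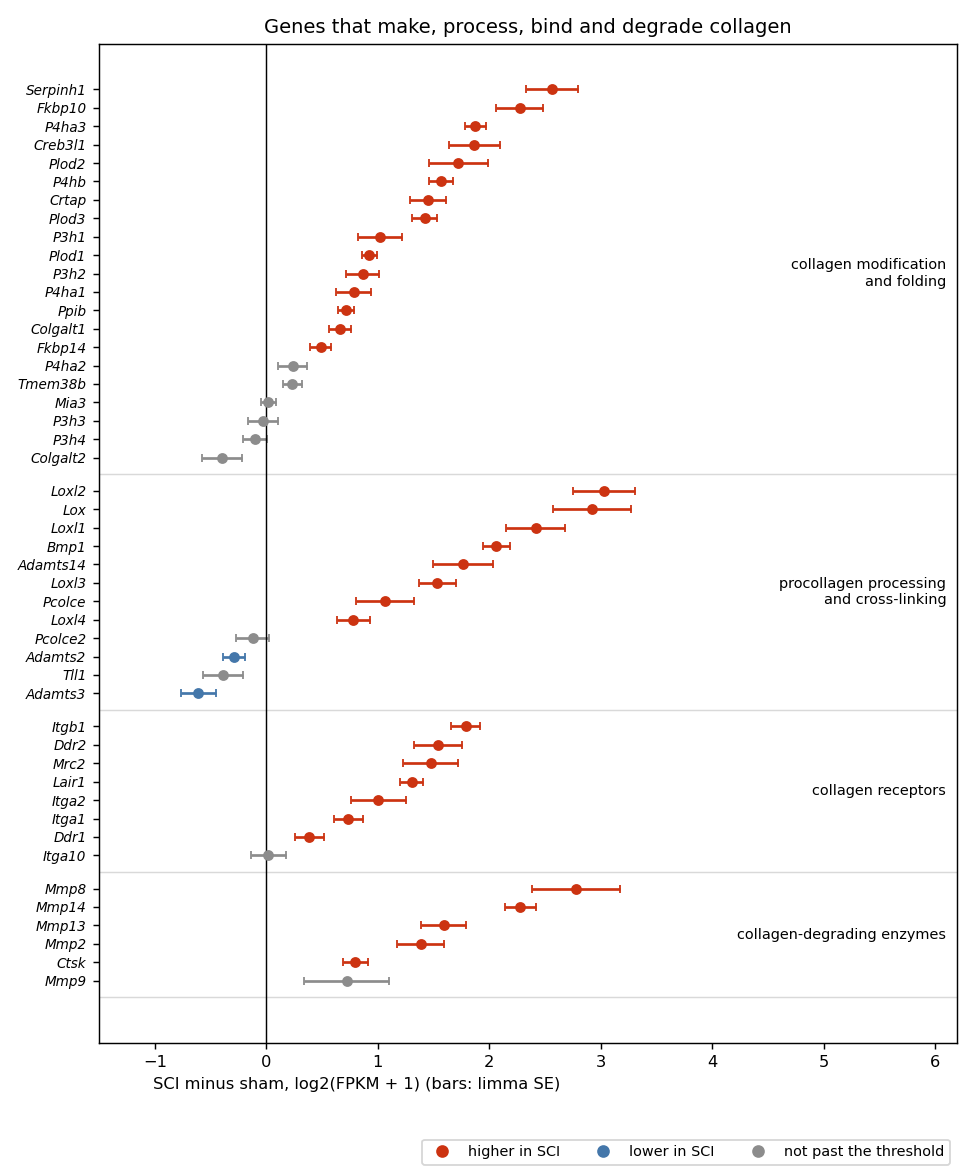
Change of the tested genes that modify, process, bind or degrade collagen, SCI minus sham on log2(FPKM + 1) with limma's standard error as bars. Loxl2 has the largest value at 3.03, and the members below 0 that passed are Adamts3 (−0.61) and Adamts2 (−0.29).

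Markers of the cells that could carry these transcripts moved with the collagens in part. The counts below stand beside 26.7% higher and 30.8% lower over all genes tested. Fibroblast genes had 5 of 9 tested members higher and 1 lower, with sums of 426 to 487 FPKM in sham cord against 340 to 500 in injured cord. The number higher was 2 without sham replicate 2, 2 without SCI replicate 1 and 3 without SCI replicate 2 or with the replicate number as a term, and the number lower was 3 without sham replicate 2. With no filter on levels 2 were higher. Lum, a proteoglycan of collagen fibrils, rose most, from 9.76, 5.03 and 12.3 to 33.9, 90.1 and 37.0 FPKM (log2 change 2.38, limma adjusted p = 0.0027). Thy1, the most abundant of the list and also strong in neurons, was lower (−1.09, adjusted p = 5.1e-04). It was at 367, 373 and 355 FPKM in sham cord against 171, 143 and 205 in injured cord. Thy1 thus made up most of the sham sums of the list, which do not show the level of the other fibroblast genes. Meningeal genes had 3 of 6 higher and 1 lower, with sums of 17.7 to 31.6 in sham cord against 56.1 to 137 in injured cord, among them Crabp2 (3.62) and Aldh1a2 (2.52). The number higher was 3 without any 1 library, while the lower call was lost (0) without any 1 library other than sham replicate 1. Like Col3a1 and Col1a1, Lum, Crabp2 and Aldh1a2 had their lowest level in sham replicate 2 and their highest in SCI replicate 2. Dcn, Pdgfrb, Fbln1 and Foxc1 did so too. Dpt, Thy1, Slc6a13, Alpl and Slc13a4 went the other way, with SCI replicate 2 the lowest of the injured libraries. Pi16 (−0.11), Mfap5 (−0.53) and Islr (−0.02) did not pass. Endothelial genes had 9 of 10 higher (sums of 207 to 225 and 452 to 511 FPKM), with Cdh5 at 2.40 and Slc2a1 at 0.80. Pericyte and smooth muscle genes had 4 of 10 higher and 1 lower, Myh11 (−0.62). Rgs5 (−0.04), Kcnj8 (0.36), Abcc9 (0.25), Vtn (−0.57) and Des (1.87) did not pass. Their list summed to 191 to 223 FPKM in sham cord against 308 to 377 in injured cord. Much of that difference was Tagln, which rose most (3.14), from 15.1 ± 3.66 to 142 ± 37.4 FPKM. Macrophage genes had 10 of 10 higher (111 to 151 and 1603 to 2723), with Lyz2 at 3.46. Of these 10, 5 (Arg1, Ccr2, F10, Ms4a7 and Msr1) reached 1 FPKM in injured libraries only and so had to differ, and the other 5 were higher as well. The part of these cells in the collagen changes was not tested.

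Genes listed as markers of tissue around the cord moved otherwise. Here too, the counts stand beside 26.7% higher and 30.8% lower over all genes tested. Schwann cell genes had 5 of 10 members lower and 1 higher. Among the lower was Mlip, which reached 1 FPKM in sham libraries only and so had to differ. With 1 library left out, 4 to 6 were lower. Of 12 listed cartilage and bone genes only 5 were tested, and 4 of these were lower (list sums of 27.0 to 30.5 and 13.8 to 21.7 FPKM). Among the lower were Ucma (−2.01) and Acan (−0.65), while Dmp1 (−0.20) did not pass. The untested genes did not exceed 0.63 FPKM in any sham library, and Bglap2 was listed at 0 in all 6 libraries. Comp was at 5.02 FPKM in SCI replicate 3, against 0.27 and 0.42 in SCI replicates 1 and 2, and Ibsp at 1.15 in SCI replicate 2. Whether these falls, that of Acan among them, came from tissue around the cord or from the cord itself was not tested. Skeletal muscle genes had 0 of 8 past the limma threshold, also 0 at an unadjusted p under 0.05 (21.9 to 139 and 16.1 to 555), with Acta1 at 0.96 and Mb at 1.01. Sensory ganglion genes had 1 of 3 tested members lower, Prph (−1.45), with sums of 85.1 to 111 in sham and of 30.4, 16.4 and 125 in SCI libraries. Prph made up most of the sham sums, at 81.9, 106 and 81.0 FPKM, and no other listed gene exceeded 2.25 in a sham library. These sham sums therefore say little of the other ganglion genes. Whether the fall of Prph came from ganglion neurons or from cord neurons, whose listed genes were 10 of 10 lower, was not tested. The number lower was 2 without SCI replicate 3 and 0 without any other 1 library. Haemoglobin genes had 3 of 4 higher, with Hba-a1 at 3.05 and Hbb-bs at 2.98, and 0 without any 1 sham library or SCI replicate 1. Of the markers of cord itself, astrocyte genes had 4 of 10 higher and 6 lower, with Gfap at 2.13, and oligodendrocyte genes 1 higher (0 without any 1 library other than SCI replicate 2) and 6 lower of 10 (4 without sham replicate 1 or 2), with Opalin at −1.07 and Mbp at −0.56. Nefl (−1.59) and Chat (−2.23) were among the neuron genes, and all of these cord markers were present in every library.

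Promoter windows were at hand for 35 of the 44 collagens, 38 windows in all because 3 genes had a pair of start sites. No entry was present for Col1a1, Col2a1, Col4a3, Col5a2, Col9a3, Col12a1, Col14a1, Col22a1 and Col26a1. GGGCGG, the core of the GC box, was found on either strand in 23 of the 38 windows (60.5%), against 35.7% of all 32851 promoters, and CCAAT in 13 (34.2%), against 37.4%. By direction, GGGCGG was in 11 of 16 windows of collagens that were higher (68.8%) and in 5 of 7 of those that were lower (71.4%). The 16 windows came from 14 genes. Among the 11 are both windows of Col6a2, which overlap. The windows of Col4a1 and Col4a2, also among the 11, overlap and share a match. TATAAA was in 1 of the 16 and 1 of the 7, and in 13.6% of all promoters, and the match of the 16 was that of Col3a1 shown above. TGANTCA, a form of the AP-1 site, was found in 1 of the 38 windows, that of Col6a1, against 7.81% of all. The short CAGAC was in 10 of 16 and 4 of 7. These are matches of letters in a window of 300 bases and say nothing of whether a factor was bound.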

How the data were processed

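Polyadenylated RNA was sequenced from 3 sham and 3 SCI libraries, grouped by the sample titles. The deposited values are FPKM per gene and library, which the authors rounded to 2 decimals, per the file headers. Tools listed in the submitters' processing notes are edgeR, DESeq2, StringTie 1.3.4d, HISAT2 2.0.4, cutadapt 1.9 and UMI-tools, with mm9 as the build. What each tool did, and the strand setting, is not stated there. The coordinates in the files are those of GRCm38: 38 of the 44 collagens have the same chromosome, start and end in GENCODE M21.

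FPKM hold no counts, and the depth is unknown. No step of whole reads was found: when low genes (2727 to 3232 per pair) were compared with sham replicate 1, no log2 ratio gathered more than 3.69% to 4.91% of them. FPKM summed to 716215 to 734791 per library.

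The values were analysed with limma 3.58.1 in R 4.3.3 (group as the only term, mean-variance trend) on log2(FPKM + 1). All tested collagens are named, and members below the filter are given by range. From each list of other genes, the rule named the most changed and the most abundant members. The alternatives were other pseudocounts, filters and scalings, no trend, a replicate block and leaving out each library. The members and lists were chosen with earlier results of these data known. The summed level of the Schwann cell list is not reported here. Promoters are from RefSeq (GRCm38.p6).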

Additional observations from a re-analysis of the deposited data

How the results depend on the processing

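All 26 collagens past the threshold kept their direction under every alternative run. Every one of the 26 also kept its call with pseudocounts of 0.1 and 0.01, under quantile normalization, without the mean-variance trend and after rescaling without mitochondrial and haemoglobin genes. The call was kept by 24 under median-ratio scaling, 22 with no filter on low values, all 19 still tested when a mean of 5 FPKM was required, and 22 to 25 when any 1 library was left out.

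Collagens lower numbered 8. They were 5 with no filter, 4 when a mean of 5 FPKM was required and 5 to 7 when 1 library was left out. The lower members among transmembrane collagens went from 2 to 1 with either filter and were 1 or 2 with 1 library left out, and those among FACIT collagens went to 1 with the stricter filter. That filter left no higher anchoring fibril collagen (0) and 0 higher members in the class of Col26a1 and Col28a1. Col26a1, the only lower member of that class, was lost (0) with either filter, under median-ratio scaling, with the replicate block and without any 1 library. In the list of modification and folding, 1 gene was lower under quantile normalization and with the block, against 0. In the list of processing and cross-linking, the 2 lower became 1 with no filter, under median-ratio scaling and with the block, 0 with the stricter filter, and 0 or 1 with 1 library left out. The degrading enzymes that were higher went from 5 to 3 with the stricter filter. The lower meningeal gene was also lost (0) with no filter and under median-ratio scaling. Where a filter tests fewer or more genes its counts change by construction, and for the other alternatives the cause was not tested.

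The 3 collagens that did not pass and changed sign are these. Col9a3 (−0.01) was at 0.06 under median-ratio scaling, and from −0.11 to 0.12 with 1 library left out. Col4a5 (0.01) was at −0.086 under quantile normalization. Col15a1 (−0.01) was at 0.068 under median-ratio scaling, and from −0.29 to 0.17 with 1 library left out.

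The replicate numbers did not pair the samples: same-numbered libraries deviated from their group means with Pearson r of −0.0076, −0.0385 and 0.022 for numbers 1, 2 and 3. With the replicate block, 25 of the 26 collagen calls were kept (18 higher and 7 lower), Col26a1 did not pass (−0.41, adjusted p = 0.066 in limma), and 4398 of all genes were higher and 5045 lower, against 4653 and 5371. The log2 difference in the summed collagen FPKM was 1.42, and no lower than 1.26 with 1 library left out.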
